A study of Mus musculus with 12 samples.

Results

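Chemokines are small secreted proteins that draw leukocytes along a gradient by binding receptors that cross the cell membrane. The genes described here are the chemokines and chemokine receptors of the mouse joint other than the main neutrophil-attracting set, which was left out (Cxcl1, Cxcl2, Cxcl3, Cxcl5 and their receptor Cxcr2). Members were all genes of the deposited table whose symbol begins with Ccl, Cxcl, Ccr, Cxcr or Ackr and a digit, together with Cx3cl1, Cx3cr1, Xcl1, Xcr1 and Pf4. The rule found 58 members among 25655 genes. Of these, 47 reached 1 CPM (a read count scaled to the depth of its library) in 4 or more of the 12 libraries and are described, 10 stayed below that level and Ccl27b had no read. Just inside the level stood Ccl27a, in 4 libraries, and Cxcr1 and Cxcr5, in 5 libraries each. Just outside it stood Ccr4 and Ccr8, in 3 libraries each, and Ccr10, in 2. Of the 47, 6 had no Sedentary library at the level (Cxcr1, Ccl20, Xcl1, Ccl3, Ccl4 and Ccr6), so these could pass only through mannan-treated libraries.

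Most chemokines fall into the CC and CXC families, named after the spacing of their first cysteines. Inflammatory members are switched on by cytokines and bring monocytes, neutrophils and effector T cells into a tissue, whereas homeostatic members such as Cxcl12, Cxcl13, Ccl19 and Ccl21 place cells within it. Atypical receptors (the Ackr genes) bind chemokines without the usual signal and take them up or move them. In arthritic joints chemokines are known for bringing leukocytes into the synovium, and in SKG mice Ccl20 is known for drawing Ccr6-bearing Th17 cells there.

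RNA was sequenced from the synovial membrane, the lining of the joint, and from the fat pad attached to it. All mice were SKG/Jcl, an arthritis-prone strain with a mutated Zap70, a kinase of T cell receptor signalling. The Sedentary group received PBS. The group called Arthritis here, in which arthritis was induced, was given mannan, a polysaccharide from yeast, at 20 mg, and the AREx group received 20 mg of mannan and exercised on a treadmill at low intensity. Age, sex and treadmill schedule are not stated in the labels. Each group had 4 libraries, with total counts of 13459509 to 17248088 in Sedentary, 11803882 to 12918609 in Arthritis and 12439229 to 17650156 in AREx. Separate animals are not stated for the libraries, so a p-value here describes the spread among libraries, which may be technical.

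Markers of the labelled tissue were present in every library. The summed level of 8 synovial fibroblast markers was 2950 to 22227 CPM in Sedentary, 10842 to 13845 CPM in Arthritis and 8657 to 14822 CPM in AREx. The summed level of 8 adipocyte markers was 11903 to 20722 CPM in Sedentary, 752 to 1594 CPM in Arthritis and 949 to 2793 CPM in AREx, and all 8 were lower in both mannan groups. AREx replicates 1 and 4 stood apart in gene length. In the shortest quintile of genes, the median log2 ratio to the Arthritis mean reached 0.82 for AREx replicate 1 and 0.54 for replicate 4. It was 0.0033 in replicate 2 and 0.029 in replicate 3. Muscle markers divided the AREx libraries differently. The summed level of 12 skeletal muscle genes was 2966 and 2934 CPM in AREx replicates 2 and 4, 249.5 and 269 CPM in AREx replicates 1 and 3, and at most 299.9 CPM in the other groups.

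Promoter sequences are shown for the ligand with the largest rise, Ccl20, and for the neighbouring Cxcr3 ligands Cxcl9 and Cxcl10, because factors of the NF-kB and interferon pathways are known to act on these genes. The sequences are RefSeq entries of build GRCm38.p6, 250 bases before to 50 bases after the start of transcription, in the direction of the gene. This build is older than GRCm39, the build of the files, whose coordinates are given for genes. The windows are chr1:83116516-83116815 on the plus strand for Ccl20, chr5:92328030-92328329 on the minus strand for Cxcl9 and chr5:92348840-92349139 on the minus strand for Cxcl10. Capitals mark an NF-kB form (GGNNTTTCC) or an interferon-response form (GAAANNGAA), each searched on both strands, and no match of one overlapped a match of the other.
Ccl20: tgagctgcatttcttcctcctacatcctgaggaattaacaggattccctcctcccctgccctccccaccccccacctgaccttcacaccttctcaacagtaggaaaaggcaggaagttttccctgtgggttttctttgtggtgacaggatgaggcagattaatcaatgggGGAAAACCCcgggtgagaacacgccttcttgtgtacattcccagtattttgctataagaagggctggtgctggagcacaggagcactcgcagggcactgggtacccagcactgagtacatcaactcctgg
Cxcl9: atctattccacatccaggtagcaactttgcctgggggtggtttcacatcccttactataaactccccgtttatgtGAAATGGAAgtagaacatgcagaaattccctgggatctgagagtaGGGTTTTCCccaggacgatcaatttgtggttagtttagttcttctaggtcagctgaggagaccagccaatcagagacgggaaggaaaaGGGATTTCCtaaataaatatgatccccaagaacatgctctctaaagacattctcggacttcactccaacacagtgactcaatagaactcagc
Cxcl10: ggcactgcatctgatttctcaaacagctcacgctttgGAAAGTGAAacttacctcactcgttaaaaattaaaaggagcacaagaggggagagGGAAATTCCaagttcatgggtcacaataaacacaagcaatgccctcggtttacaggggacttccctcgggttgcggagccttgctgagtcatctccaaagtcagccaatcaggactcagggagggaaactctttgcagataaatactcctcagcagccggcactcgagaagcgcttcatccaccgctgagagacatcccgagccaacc

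The NF-kB form began 80 bases before the start in Ccl20, 130 and 42 bases before it in Cxcl9 and 158 bases before it in Cxcl10. The interferon-response form began 175 bases before the start in Cxcl9 and 213 bases before it in Cxcl10, and these letters are not in the Ccl20 window. Of the 47 described members, 36 had a promoter entry. Members were counted by gene, with a match in any entry of the gene, whereas the percentages below are shares of promoter entries. The units are therefore unlike. The NF-kB form was present in 6 of the 36, the others being Ccl9, Ccr3 and Ackr4, and in 5.82% of all 32851 promoters of the same length. The interferon-response form was present in 7 of the 36, the others being Ccl3, Ccl19, Cxcl14, Ccr2 and Cxcr1, and in 8.56% of all promoters. Both forms were chosen after the matches of forms 1 letter longer (a further G before the NF-kB form, a further A after the interferon-response form) had been seen. The longer NF-kB form was present in 3 of the 36 (Ccl20, Ccl9 and Ccr3) and in 1.63% of all promoters, and the longer interferon-response form in 3 of the 36 (Ccl19, Cxcl10 and Cxcl14) and in 3.44%. Neither longer form was present in the Cxcl9 window. A TATA box form was also searched and is not shown. A match describes letters in a window and is not a site of binding. Of the 11 genes with a match, Ccr3 and Ackr4 did not pass the test after mannan and the others rose.

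Arthritis was compared with Sedentary to see which of these genes differed in the joint after mannan. Ligands of the monocyte, macrophage and effector T cell receptors were higher, as were most of those receptors, while the eotaxins Ccl11 and Ccl24 and the atypical receptors Ackr1 and Ackr2 were lower. Of the 47 described members, 31 rose, against 26.3% of all 14278 genes tested, and 7 fell, against 25.2%. By edgeR's quasi-likelihood test with Benjamini-Hochberg adjustment over all tested genes, 51.5% of genes passed at an adjusted p under 0.05 in either direction. The 31 that rose comprised 20 of 29 ligands and 11 of 18 receptors, and the 7 that fell comprised 5 ligands and 2 receptors. Groups did not overlap for all 31 that rose and for 6 that fell, where 32.2% and 31.6% of all genes had every Arthritis library above or below every Sedentary library. The median log2 change was 2.05 over the 47 members and 0.0057 over all tested genes, and it was the same with Cxcr1, which had no read in Sedentary, set to its lower bound. Of the 35 members at the level in all 12 libraries, 23 rose and 6 fell. The share among all genes at that level in all 12 libraries was not counted, so this number has no background beside it. Fewer cells of a type and less RNA per cell cannot be told apart in these bulk libraries.

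**Figure D1:**
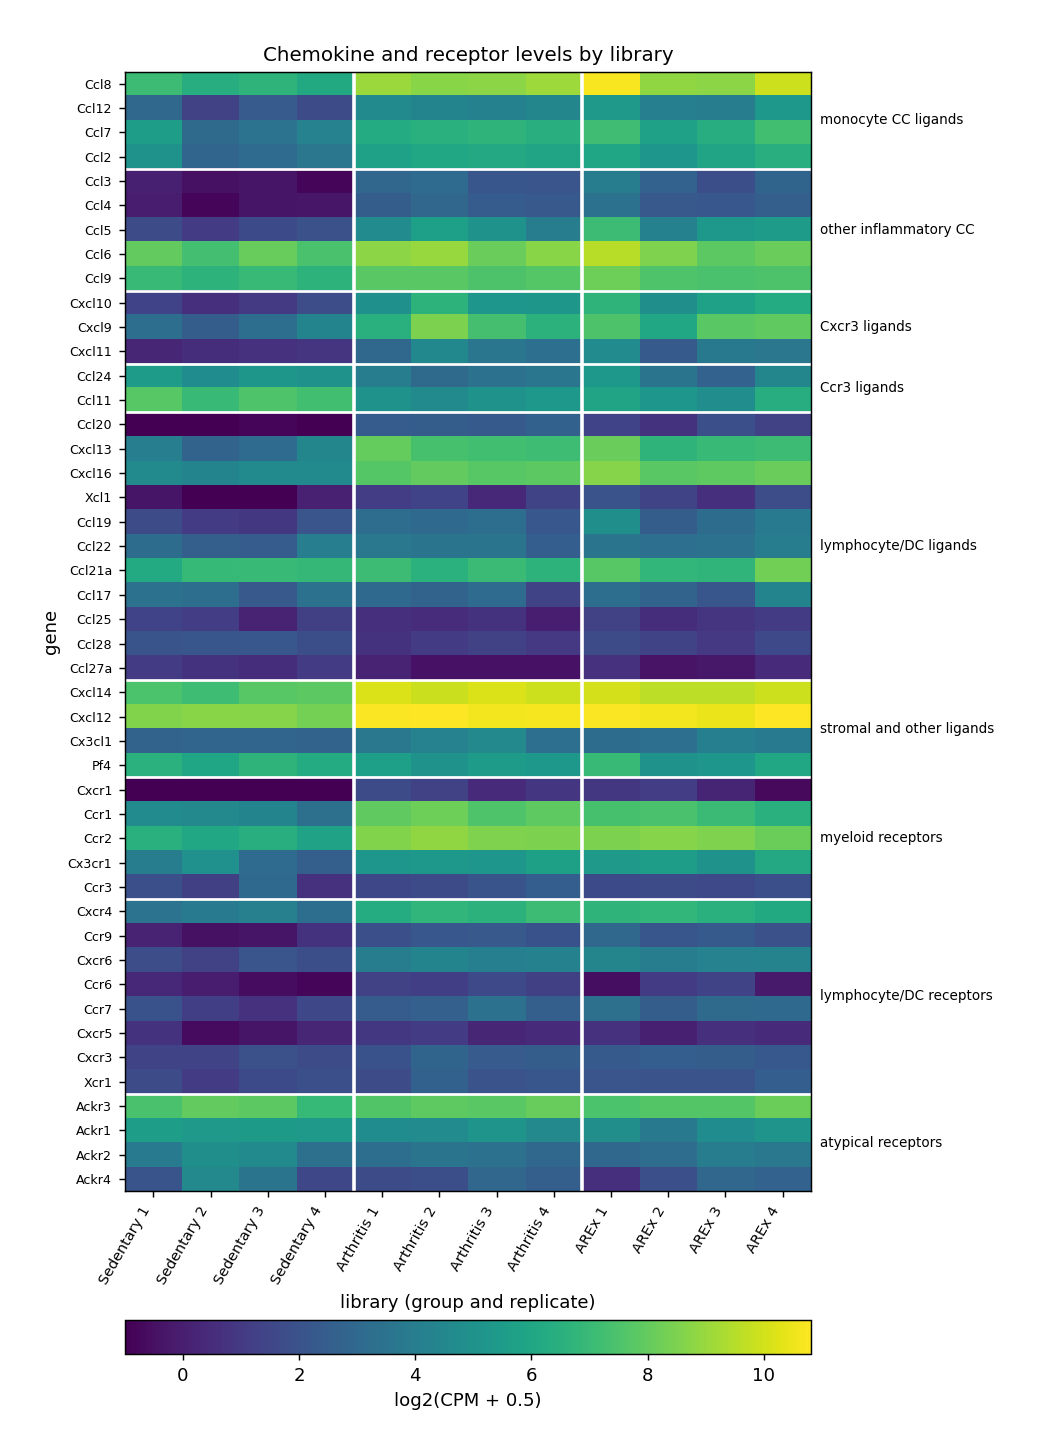
Levels of 46 described members (rows, grouped by role) in the 12 libraries (columns) as log2(CPM + 0.5), with brighter colours for higher levels. Most ligands and receptors are brighter in the 8 mannan libraries than in the 4 Sedentary libraries, while Ccl11 and Ccl24 are darker, and AREx replicates 1 and 4 are the brightest for Ccl8.

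In the sentences that follow, values by library run from replicate 1 to replicate 4, group values are means ± SD (n = 4), and changes are log2 fold changes with a standard error (SE), each taken against Sedentary unless another group is named. Gene positions are in GRCm39.

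The 4 CC ligands grouped here as monocyte-attracting, of which Ccl8 is in the mouse a ligand of Ccr8, all rose in both mannan groups. Ccl2, which brings Ccr2-bearing monocytes out of the blood, was at 14.9 ± 11.6 CPM in Sedentary, 62.02 ± 7.16 in Arthritis and 60.5 ± 20.5 in AREx. Its log2 change was 2.05 (SE 0.43, adjusted p = 0.00145) in Arthritis and 2.01 (SE 0.42, adjusted p = 0.00169) in AREx. Ccl7, which shares Ccr2 with it, was at 21.2 ± 17.9 CPM in Sedentary, 88.9 ± 10.1 in Arthritis and 109 ± 48.5 in AREx. Sedentary replicate 1 was the highest library of its group for both genes. Without it the Arthritis change was 2.75 for Ccl2 and 2.83 for Ccl7, and the AREx change was 2.72 and 3.12. Ccl12, a further mouse ligand of Ccr2, was at 4.25 ± 2.48 CPM in Sedentary, 20.8 ± 2.58 in Arthritis and 28.1 ± 13.998 in AREx, with a change of 2.27 (SE 0.42, adjusted p = 0.000647) in Arthritis. Ccl8, which in the mouse binds Ccr8 (ENSMUSG00000009185, chromosome 11, 82006011 to 82007625), stood at 138, 81.4, 102 and 71.8 CPM in Sedentary, at 533, 425, 429.9 and 543 CPM in Arthritis and at 1673, 464, 432 and 979.7 CPM in AREx. The mannan libraries all lay above the Sedentary libraries, and AREx replicates 1 and 4 lay above every Arthritis library. Its change was 2.30 (SE 0.40, adjusted p = 0.000397) in Arthritis and 3.17 (SE 0.41, adjusted p = 4.54e-05) in AREx.

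The 5 other inflammatory CC ligands, which act on monocytes, macrophages and effector T cells, all rose in both mannan groups. Ccl3, macrophage inflammatory protein 1 alpha (ENSMUSG00000000982, chromosome 11, 83538670 to 83540181), stood at 0.52, 0.217, 0.297 and 0.0779 CPM in Sedentary, at 6.9, 8.25, 3.91 and 3.78 CPM in Arthritis and at 15.2, 6.02, 3.03 and 6.51 CPM in AREx. Ccl4, its neighbour macrophage inflammatory protein 1 beta (ENSMUSG00000018930, chromosome 11, 83553410 to 83555509), stood at 0.462, 0.0724, 0.297 and 0.312 CPM in Sedentary, at 5.08, 7.03, 4.84 and 4.37 CPM in Arthritis and at 10.2, 4.38, 4.18 and 5.42 CPM in AREx. Both were low in all 4 Sedentary libraries, with no overlap, and AREx replicate 1 was the highest library for each. Ccl3 rose by 4.26 (SE 0.60, adjusted p = 8.51e-05) in Arthritis and 4.68 (SE 0.60, adjusted p = 4.27e-05) in AREx. Ccl4 rose by 4.15 (SE 0.44, adjusted p = 8.68e-06) in Arthritis and 4.32 (SE 0.44, adjusted p = 7.32e-06) in AREx. Ccl5, made by T cells and other leukocytes, was at 2.61 ± 0.72 CPM in Sedentary, 30.96 ± 14.6 in Arthritis and 59.3 ± 52.4 in AREx, with a change of 3.57 (SE 0.60, adjusted p = 0.000325) in Arthritis. AREx replicate 1 held 136 CPM of Ccl5, and the AREx change of 4.50 became 3.69 without that library. The rodent ligands Ccl6 and Ccl9, abundant in myeloid cells, changed least of the 5. Ccl9 was at 113 ± 17.02 CPM in Sedentary, 208 ± 18.3 in Arthritis and 210.3 ± 59.8 in AREx and rose by 0.88 (SE 0.18, adjusted p = 0.00145) in Arthritis. Ccl6 was at 212 ± 56.5 CPM in Sedentary, 409 ± 95.4 in Arthritis and 409 ± 236 in AREx and rose by 0.95 (SE 0.35, adjusted p = 0.0354) in Arthritis. The Arthritis call of Ccl6 was lost without any 1 of Sedentary replicates 2 and 4 and Arthritis replicates 1, 2 and 4 (adjusted p = 0.0671 to 0.098).

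All 3 ligands of Cxcr3, the receptor of Th1 and cytotoxic lymphocytes, rose in both mannan groups. These genes are known as interferon targets. Cxcl10 (ENSMUSG00000034855, chromosome 5, 92494497 to 92496748) stood at 2.08, 1.01, 1.48 and 2.96 CPM in Sedentary, at 29.6, 101, 36.2 and 38.04 CPM in Arthritis and at 103, 29.4, 53.4 and 77.5 CPM in AREx. Cxcl9 (ENSMUSG00000029417, chromosome 5, 92469206 to 92475938) stood at 9.01, 5.14, 9.12 and 19.6 CPM in Sedentary, at 89.4, 353, 163 and 94.6 CPM in Arthritis and at 185, 66.5, 224 and 244 CPM in AREx. For both, every mannan library exceeded every Sedentary library, and Arthritis replicate 2 was far above the other Arthritis libraries. Cxcl10 rose by 4.76 (SE 0.54, adjusted p = 1.55e-05) in Arthritis and 5.12 (SE 0.55, adjusted p = 1.13e-05) in AREx. Cxcl9 rose by 4.03 (SE 0.59, adjusted p = 0.000106) in Arthritis and 4.07 (SE 0.59, adjusted p = 0.000105) in AREx, and its Arthritis change was 3.43 without Arthritis replicate 2. Cxcl11 was at 0.998 ± 0.239 CPM in Sedentary, 12.8 ± 6.84 in Arthritis and 13.9 ± 8.7 in AREx and rose by 3.69 (SE 0.54, adjusted p = 0.000104) in Arthritis. Cxcl10 and Cxcl11 overlap Art3, which fell by 3.50 in Arthritis, so reads could be split between them where strand was not used in counting.

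Both described eotaxins, ligands of the eosinophil receptor Ccr3, fell in Arthritis. Ccl11, eotaxin 1 (ENSMUSG00000020676, chromosome 11, 81948649 to 81953781), stood at 216, 130.1, 187 and 152 CPM in Sedentary, at 33.4, 23.9, 31.8 and 39.5 CPM in Arthritis and at 59.3, 36.2, 26.9 and 81.8 CPM in AREx. All 8 mannan libraries lay below all 4 Sedentary libraries, and AREx replicates 1 and 4 were the highest of the mannan libraries. Ccl11 fell by 2.41 (SE 0.32, adjusted p = 4.73e-05) in Arthritis and by 1.74 (SE 0.31, adjusted p = 0.000481) in AREx. Ccl24, eotaxin 2 (ENSMUSG00000004814, chromosome 5, 135598791 to 135601903), stood at 43.8, 25.99, 37.7 and 31.9 CPM in Sedentary, at 15.4, 8.09, 10.2 and 11.9 CPM in Arthritis and at 38.4, 11.1, 5.99 and 21.2 CPM in AREx. The Arthritis libraries were all below the Sedentary libraries, whereas AREx replicate 1 lay within the Sedentary range. Ccl24 fell by 1.61 (SE 0.45, adjusted p = 0.00914) in Arthritis, and in AREx its change was -0.87 (SE 0.44, adjusted p = 0.114). Without AREx replicate 1 the AREx change was -1.44 (adjusted p = 0.00551), and without AREx replicates 1 and 4 it was -2.03 (adjusted p = 0.000386). Ccr3 itself was at 3.48 ± 2.96 CPM in Sedentary, 3.54 ± 1.24 in Arthritis and 2.81 ± 0.253 in AREx and its change in Arthritis was 0.022 (SE 0.48, adjusted p = 0.975). Eosinophil markers, 6 genes of which 3 were tested, summed to 7.53 to 10.5 CPM in Sedentary, 11.4 to 19.0 CPM in Arthritis and 7.82 to 15.6 CPM in AREx. Of the 3, 1 rose and 1 fell in each mannan group, and their part in the eotaxin values was not tested.

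**Figure D2:**
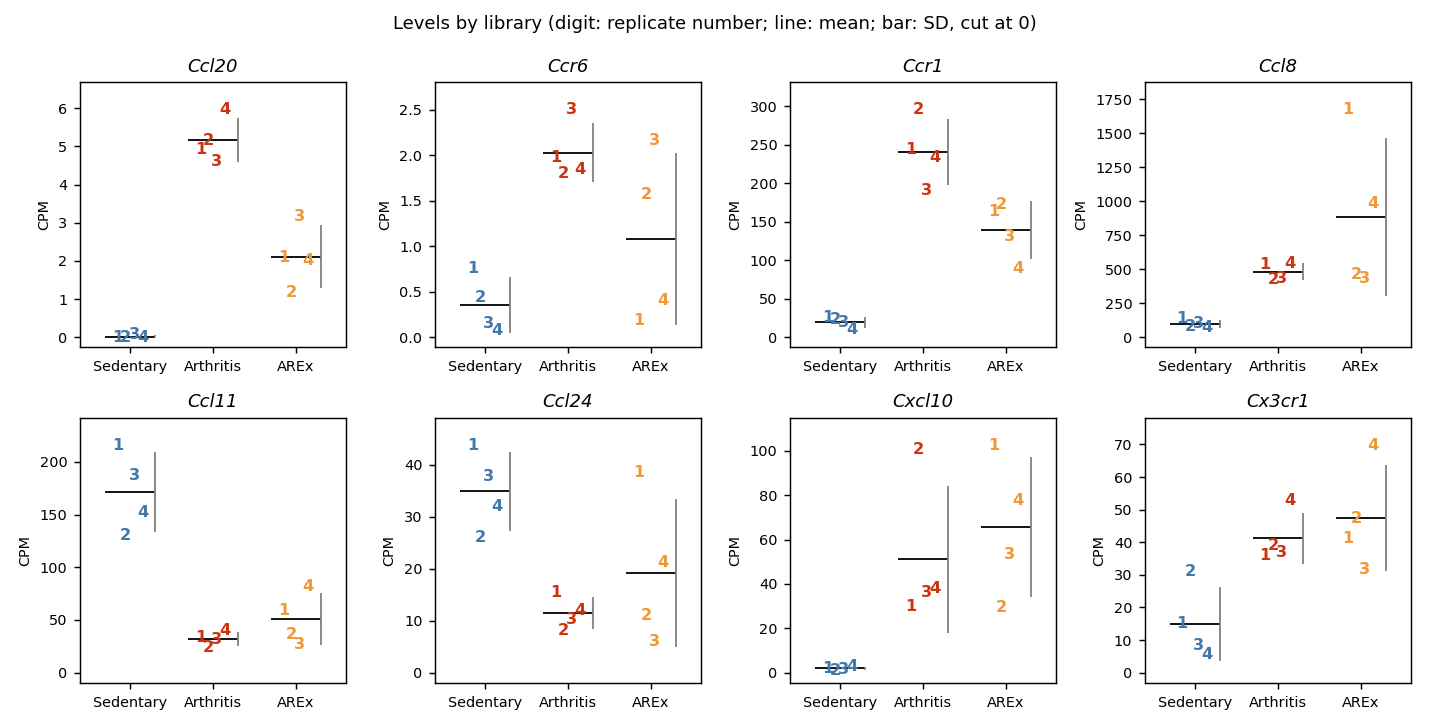
CPM of 8 members in each library, where the digit is the replicate number, the horizontal line the group mean and the vertical bar the SD, cut at 0. Ccl20 and Ccr1 were lower in all 4 AREx libraries than in any Arthritis library, while Ccl8, Ccl11 and Ccl24 were highest among the mannan libraries in AREx replicates 1 and 4.

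Ligands that act on lymphocytes and dendritic cells divided, with 5 of 11 higher and 2 lower in Arthritis. Ccl20, the ligand of Ccr6 (ENSMUSG00000026166, chromosome 1, 83094487 to 83096888), stood at 0, 0, 0.0742 and 0 CPM in Sedentary, at 4.93, 5.15, 4.61 and 5.96 CPM in Arthritis and at 2.09, 1.18, 3.17 and 2 CPM in AREx. The Sedentary group held 1 read in all, in replicate 3, and every mannan library was above it. The Arthritis libraries held 258 reads, a ratio of 296-fold with a 95% counting interval of 52.6 to 11722, and passed the test with adjusted p = 9.38e-07. The AREx libraries held 120 reads, a ratio of 119-fold with an interval of 21.0 to 4758 and adjusted p = 4.93e-06. Such intervals cover counting error only. Without Sedentary replicate 3 that group had no read at all. Cxcl13, which organises B cells through Cxcr5 (ENSMUSG00000023078, chromosome 5, 96104810 to 96108927), stood at 15.9, 6.22, 8.23 and 21.2 CPM in Sedentary, at 259, 168, 148 and 140.1 CPM in Arthritis and at 281, 103, 128 and 139 CPM in AREx. Its groups did not overlap Sedentary, and AREx replicate 1 was again high. Cxcl13 rose by 3.79 (SE 0.44, adjusted p = 1.75e-05) in Arthritis and 3.65 (SE 0.44, adjusted p = 2.45e-05) in AREx.

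Cxcl16, a membrane-bound ligand of Cxcr6, was at 23.1 ± 2.14 CPM in Sedentary, 226 ± 18.6 in Arthritis and 284 ± 83.8 in AREx and rose by 3.29 (SE 0.19, adjusted p = 2.88e-07) in Arthritis. It overlaps Zmynd15, which rose by 3.65 in Arthritis. Xcl1, made by cytotoxic lymphocytes, was at 0.209 ± 0.263 CPM in Sedentary, 1.71 ± 0.648 in Arthritis and 2.48 ± 1.09 in AREx and rose by 2.98 (SE 0.74, adjusted p = 0.0046) in Arthritis. Its Arthritis change was 3.86 without Sedentary replicate 4. Ccl19, a ligand of the lymph node homing receptor Ccr7, was at 2.41 ± 1.13 CPM in Sedentary, 7.43 ± 2.3 in Arthritis and 14.2 ± 10.7 in AREx and rose by 1.62 (SE 0.52, adjusted p = 0.0195) in Arthritis. That call was lost without Sedentary replicate 2 (adjusted p = 0.0552) or Sedentary replicate 3 (adjusted p = 0.0558). In AREx its change of 2.54 became 1.91 without AREx replicate 1. Ccl21a, the other Ccr7 ligand, which lymphatic vessels make, was at 109.6 ± 24.3 CPM in Sedentary, 116 ± 22.6 in Arthritis and 187 ± 98.7 in AREx and its Arthritis change was 0.077 (SE 0.32, adjusted p = 0.861). The Ccr4 ligands Ccl17 and Ccl22, made by dendritic cells and macrophages, also missed the threshold. Ccl17 was at 8.57 ± 2.84 CPM in Sedentary, 6.08 ± 2.74 in Arthritis and 9.76 ± 6.92 in AREx and Ccl22 at 8.74 ± 5.05 CPM in Sedentary, 10.2 ± 3.36 in Arthritis and 11.6 ± 2.83 in AREx. The same held for Ccl25, a ligand of the gut-homing receptor Ccr9, at 1.57 ± 0.666 CPM in Sedentary, 0.89 ± 0.282 in Arthritis and 1.44 ± 0.416 in AREx. However, Ccl25 passed in Arthritis without Sedentary replicate 3 (change -1.08, adjusted p = 0.0188). It held 219 reads and overlaps Elavl1, which held 10182 reads.

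Both ligands of Ccr10, a receptor of skin-homing and mucosal lymphocytes, fell in Arthritis. Ccl28, a mucosal epithelial ligand (ENSMUSG00000074715, chromosome 13, 120085355 to 120115895), stood at 3.75, 3.91, 4.08 and 3.04 CPM in Sedentary, at 1.14, 1.63, 1.95 and 1.43 CPM in Arthritis and at 2.9, 2.22, 1.44 and 2.57 CPM in AREx. Every mannan library lay below every Sedentary library. Ccl28 fell by 1.26 (SE 0.26, adjusted p = 0.00124) in Arthritis and by 0.70 (SE 0.25, adjusted p = 0.033) in AREx. Ccl27a, best known from keratinocytes (ENSMUSG00000073888, chromosome 4, 41769467 to 41774247), stood at 1.68, 1.16, 0.964 and 1.64 CPM in Sedentary, at 0.607, 0.245, 0.234 and 0.252 CPM in Arthritis and at 1.09, 0.262, 0.361 and 0.856 CPM in AREx. All Arthritis libraries were lower than Sedentary, while AREx replicate 1 overlapped it. Ccl27a fell by 1.99 (SE 0.48, adjusted p = 0.00427) in Arthritis, and its AREx change was -1.10 (SE 0.44, adjusted p = 0.0544). It held 132 reads in all libraries and overlaps Il11ra1, which held 18779 reads and fell by 1.13 in Arthritis. Ccl27a also has a near-identical copy, Ccl27b, so its value is uncertain, as is that of Ccl21a beside Ccl21b and Ccl21d. Keratinocyte markers, 6 genes, summed to 2.27 to 3.02 CPM in Arthritis and 4.56 to 6.82 CPM in Sedentary, and its part in these values was not tested.

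Of the 4 remaining ligands, 3 rose and 1 fell in Arthritis. Cxcl12, the stromal ligand that holds Cxcr4-bearing cells in a tissue, was at 387 ± 45.2 CPM in Sedentary, 1671 ± 112 in Arthritis and 1613 ± 154 in AREx and rose by 2.11 (SE 0.14, adjusted p = 5.34e-07) in Arthritis. Cxcl14, made by stromal and epithelial cells, was at 191 ± 37.9 CPM in Sedentary, 1056 ± 116 in Arthritis and 900.4 ± 133 in AREx and rose by 2.47 (SE 0.18, adjusted p = 8.15e-07). Cx3cl1, or fractalkine, a membrane-anchored ligand of endothelium and other cells, was at 6.49 ± 0.257 CPM in Sedentary, 15.9 ± 6.07 in Arthritis and 12.3 ± 3.94 in AREx and rose by 1.29 (SE 0.28, adjusted p = 0.00195). Pf4, platelet factor 4 (ENSMUSG00000029373, chromosome 5, 90920294 to 90921242), stood at 92.2, 62.97, 102 and 77.4 CPM in Sedentary, at 49.97, 32.2, 43.6 and 39.3 CPM in Arthritis and at 127, 32.5, 36.4 and 68.1 CPM in AREx. The Arthritis libraries were all below the Sedentary libraries, and AREx replicate 1 was the highest library of the 12. Pf4 fell by 1.02 (SE 0.37, adjusted p = 0.0336) in Arthritis, a call lost without any 1 of Sedentary replicates 1, 3 and 4 and Arthritis replicates 2, 3 and 4 (adjusted p = 0.0526 to 0.0892). Platelet and megakaryocyte markers, 6 genes, summed to 44.1 to 52.1 CPM in Sedentary and 53.7 to 78.1 CPM in Arthritis, so it was higher where Pf4 was lower.

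The myeloid receptors Ccr1, Ccr2, Cxcr1 and Cx3cr1 rose in both mannan groups. Ccr1, a receptor of monocytes and neutrophils (ENSMUSG00000025804, chromosome 9, 123762161 to 123768729), stood at 25.8, 23.3, 19.8 and 9.66 CPM in Sedentary, at 244, 296, 191 and 233 CPM in Arthritis and at 164, 173, 131 and 89.8 CPM in AREx. The 3 groups did not overlap, with AREx between Sedentary and Arthritis. Ccr1 rose by 3.61 (SE 0.31, adjusted p = 2e-06) in Arthritis and 2.82 (SE 0.30, adjusted p = 9.95e-06) in AREx. Ccr2, the receptor of inflammatory monocytes, was at 74.3 ± 15.8 CPM in Sedentary, 392 ± 46.2 in Arthritis and 356 ± 53.3 in AREx and rose by 2.40 (SE 0.18, adjusted p = 1.01e-06) in Arthritis.

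Cxcr1, a neutrophil receptor (ENSMUSG00000048480, chromosome 1, 74230944 to 74233790), stood at 0, 0, 0 and 0 CPM in Sedentary, at 2.73, 2.04, 0.859 and 1.34 CPM in Arthritis and at 1.36, 1.7, 0.649 and 0.114 CPM in AREx. Sedentary had no read, so Arthritis, with 88 reads, was at least 33.6-fold higher (adjusted p = 0.000895) and AREx, with 52 reads, at least 17.3-fold higher (adjusted p = 0.00297), taking 3 counts over the whole Sedentary group as the floor. AREx replicate 4 was the lowest mannan library. Neutrophil markers, 10 genes, were also lowest in Sedentary, with summed levels of 16.1 to 137 CPM in Sedentary, 2763 to 5639 CPM in Arthritis and 1182 to 6915 CPM in AREx. The lowest AREx sum was that of replicate 4. In Arthritis, 6 of the 10 markers rose. Their part in the Cxcr1 and Ccr1 values was not tested.

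Cx3cr1, the fractalkine receptor, known in the mouse joint from the macrophages that form the lining barrier (ENSMUSG00000052336, chromosome 9, 119730682 to 119898945), stood at 15.02, 30.9, 8.31 and 5.53 CPM in Sedentary, at 36.1, 39.1, 36.8 and 52.8 CPM in Arthritis and at 41.2, 47.2, 31.7 and 69.8 CPM in AREx. The highest Sedentary library, replicate 2, lay just below the lowest mannan library. Cx3cr1 rose by 1.46 (SE 0.43, adjusted p = 0.0132) in Arthritis and 1.67 (SE 0.43, adjusted p = 0.00655) in AREx. Without Sedentary replicate 2 these changes were 2.07 and 2.27, and without AREx replicates 2 and 4 the AREx call was lost (change 1.28, adjusted p = 0.0607). Cx3cr1 overlaps Wdr48, Gorasp1, Csrnp1 and Xirp1, of which Csrnp1 rose by 2.83 in Arthritis, and counts could be split among them. Macrophage and monocyte markers, 12 genes, summed to 1682 to 2971 CPM in Sedentary, 6097 to 7738 CPM in Arthritis and 6429.6 to 10271 CPM in AREx. In Arthritis, 8 of the 12 rose and 1 fell, and their part in the rises of Ccr1, Ccr2 and Cx3cr1 was not tested.

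Among the 8 receptors of lymphocytes and dendritic cells, 6 rose in Arthritis and none fell. Cxcr4, the receptor of Cxcl12 on many leukocytes, was at 12.8 ± 3.45 CPM in Sedentary, 104 ± 23.9 in Arthritis and 93.995 ± 17.4 in AREx and rose by 3.03 (SE 0.23, adjusted p = 1.13e-06). Cxcr6, found on tissue-resident T cells, was at 3 ± 0.751 CPM in Sedentary, 17.4 ± 1.99 in Arthritis and 18.4 ± 2.11 in AREx and rose by 2.53 (SE 0.18, adjusted p = 8.15e-07). Ccr9, known from gut homing, was at 0.565 ± 0.431 CPM in Sedentary, 3.81 ± 0.597 in Arthritis and 4.82 ± 1.77 in AREx and rose by 2.75 (SE 0.43, adjusted p = 0.000189). These 3 receptors rose in AREx too. Ccr6, the Ccl20 receptor of Th17 and B cells, was at 0.353 ± 0.307 CPM in Sedentary, 2.03 ± 0.322 in Arthritis and 1.08 ± 0.946 in AREx and rose by 2.43 (SE 0.69, adjusted p = 0.0103) in Arthritis, or by 3.13 without Sedentary replicate 1. Ccr7, the receptor of Ccl19 and Ccl21, was at 2.19 ± 0.973 CPM in Sedentary, 6.58 ± 2.56 in Arthritis and 7.64 ± 1.94 in AREx and rose by 1.57 (SE 0.35, adjusted p = 0.00237). Cxcr3, the Th1 receptor, was at 2.65 ± 0.566 CPM in Sedentary, 4.96 ± 1.25 in Arthritis and 4.8 ± 0.445 in AREx and rose by 0.91 (SE 0.22, adjusted p = 0.00457). Cxcr5, the B cell receptor of Cxcl13, and Xcr1, of cross-presenting dendritic cells, did not pass. Cxcr5 was at 0.574 ± 0.453 CPM in Sedentary, 1.14 ± 0.438 in Arthritis and 0.887 ± 0.266 in AREx and its change in Arthritis was 0.94 (SE 0.52, adjusted p = 0.15), and it passed only without Sedentary replicate 1 (change 1.57, adjusted p = 0.0306). Xcr1 was at 2.56 ± 0.682 CPM in Sedentary, 4.04 ± 1.27 in Arthritis and 4.08 ± 0.868 in AREx, with a change of 0.66 (SE 0.28, adjusted p = 0.066), and passed without Arthritis replicate 1 (change 0.80, adjusted p = 0.0387). The summed level of 12 T cell markers was 27.7 to 44.7 CPM in Sedentary, 94.96 to 128 CPM in Arthritis and 91.8 to 156 CPM in AREx, and 10 of the 11 tested rose in Arthritis. Of the natural killer cell markers, 6 of 6 tested rose in Arthritis. Their part in these receptor values was not tested. Ccr9 (487 reads) overlaps Lztfl1 (5975 reads), Cxcr6 (2097 reads) overlaps Fyco1 (11335 reads) and Cxcr5 (142 reads) overlaps Bcl9l (14086 reads). Counts could be split within each pair.

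Of the 4 atypical receptors, none rose and 2 fell in each mannan group. Ackr1, a chemokine carrier of venules and red cells (ENSMUSG00000037872, chromosome 1, 173159453 to 173161317), stood at 48.7, 40.4, 43.2 and 41.6 CPM in Sedentary, at 25.9, 25.6, 34.4 and 23.4 CPM in Arthritis and at 28.02, 13.1, 26.3 and 34.7 CPM in AREx. All mannan libraries lay below all Sedentary libraries. Ackr1 fell by 0.67 (SE 0.23, adjusted p = 0.0301) in Arthritis and by 0.77 (SE 0.23, adjusted p = 0.016) in AREx. The Arthritis call was lost without any 1 of Sedentary replicates 1 and 3 and Arthritis replicates 1, 2 and 4 (adjusted p = 0.0548 to 0.0815). Ackr1 overlaps Cadm3, which fell by 2.24 in Arthritis. Ackr2, a scavenger of inflammatory CC chemokines (ENSMUSG00000044534, chromosome 9, 121727421 to 121740140), stood at 14.6, 29.2, 23.8 and 9.89 CPM in Sedentary, at 9.18, 11.03, 10.001 and 7.56 CPM in Arthritis and at 7.16, 8.9, 14.9 and 12.7 CPM in AREx. The groups overlapped, since Sedentary replicate 4 lay within the Arthritis range. Ackr2 fell by 1.04 (SE 0.32, adjusted p = 0.0162) in Arthritis and by 0.83 (SE 0.32, adjusted p = 0.0447) in AREx, and the Arthritis call was lost without Sedentary replicate 2 (adjusted p = 0.0522). Ackr3, a scavenger of Cxcl12, was at 192 ± 57.97 CPM in Sedentary, 229.8 ± 31.9 in Arthritis and 216 ± 49.1 in AREx and its Arthritis change was 0.26 (SE 0.22, adjusted p = 0.355). Ackr4, which takes up Ccl19 and Ccl21, was at 10.1 ± 9.48 CPM in Sedentary, 4.6 ± 2.04 in Arthritis and 4.26 ± 2.68 in AREx with an Arthritis change of -1.13 (SE 0.68, adjusted p = 0.182), and ranged from 2.49 to 23.1 CPM within Sedentary. Ackr4 held 1056 reads and overlaps Acad11, which held 5947 reads and fell by 1.61 in Arthritis. The summed level of 8 blood endothelial markers was 801 to 920.3 CPM in Sedentary and 799.8 to 973 CPM in Arthritis, with 1 marker higher and 1 lower.

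Genes that act with chemokines were read from 3 lists. Of 30 genes of chemokine receptor signalling and turnover, 20 rose and none fell in Arthritis. Among those that rose were the kinase Fgr (log2 change 4.92, SE 0.32, adjusted p = 4.38e-07) and the exchange factor Vav1 (2.86, SE 0.23, adjusted p = 1.37e-06). Of 17 tested genes for related attractants, their receptors and chemokine-processing enzymes, 12 rose and 3 fell. Fpr2, a formyl peptide receptor, rose by 7.33 (SE 0.63), Ccrl2, a chemerin-binding receptor, by 3.04 (SE 0.26) and Ltb4r1, a leukotriene B4 receptor, by 2.51 (SE 0.27). Dpp4, a protease that trims chemokines, fell by 1.35 (SE 0.13). Rarres2, which encodes the attractant chemerin, fell by 2.13 (SE 0.36), and its receptor Cmklr1 fell by 0.63 (SE 0.13). Of 19 tested cytokines and factors known to induce chemokine genes, 16 rose and 1 fell. Il1b rose by 6.57 (SE 0.55) and Nfkb2 by 1.80 (SE 0.17), while the epithelial cytokine Tslp fell by 2.54 (SE 0.49). The median log2 change was 1.65, 1.21 and 1.92 over the 3 lists. In AREx against Sedentary the lists gave 19, 12 and 15 higher and 3, 3 and 2 lower.

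Levels of different genes were set side by side per length, as the authors' TPM, which scale counts by gene length and depth. Ccl8 had the highest mean TPM of the described members in every group, at 447 ± 134 in Sedentary, 2533 ± 296 in Arthritis and 3643 ± 1521 in AREx. In Sedentary it was followed by Ccl11 at 367 ± 79.7 TPM, Ccl6 at 342 ± 94.3 TPM and Ccl21a at 293 ± 71.4 TPM, and neighbours in this order differed by less than the larger SD of the pair. In Arthritis it was followed by Cxcl14 at 1555 ± 189 TPM, Ccl6 at 761 ± 164 TPM and Cxcl12 at 627 ± 31.9 TPM, of which only Ccl6 and Cxcl12 differed by less than the larger SD. Ccl11 ranked 2 among the 47 in Sedentary, 20 in Arthritis and 19 in AREx. Ccr1 was the highest chemokine receptor in Arthritis, at 228 ± 37.3 TPM, above the scavenger Ackr3 at 185 ± 26.2 TPM. In Sedentary the order was the other way, with Ackr3 at 135 ± 46.7 TPM and Ccr1 at 16.3 ± 6.21 TPM.

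AREx was compared with Sedentary for the same genes, and both comparisons share the Sedentary libraries. In AREx 30 of 47 members rose, against 27% of all genes tested, and 4 fell, against 23.7%, with 50.8% of genes called in either direction. Groups did not overlap for 30 higher and 3 lower members, against 22.7% and 22.5% of all genes. Of the 35 members at the level in all 12 libraries, 23 rose and 4 fell in AREx, again with no share of all genes at that level counted. The median log2 change was 2.01 over the members and 0.049 over all genes. By role, the log2 rises ran from 2.01 to 3.17 over the 4 monocyte-attracting ligands, from 0.89 to 4.68 over the 5 other inflammatory CC ligands, from 3.80 to 5.12 over the 3 Cxcr3 ligands and from 0.92 to 2.24 over Cxcl12, Cxcl14 and Cx3cl1. The 5 called receptors of lymphocytes and dendritic cells, which were Cxcr4, Cxcr6, Ccr9, Ccr7 and Cxcr3, rose by 0.86 to 3.07. With the gene-length trend removed, the AREx rises of 7 ligands moved by over 1.5 times and each still passed. Ccl8 then rose by 2.27, Ccl12 by 1.93, Ccl5 by 3.57, Ccl3 by 3.99, Ccl4 by 3.67, Xcl1 by 2.81 and Ccl19 by 1.86. The range became 1.53 to 2.27 over the monocyte-attracting ligands and 0.55 to 3.99 over the other inflammatory CC ligands, where Ccl6 (0.55, adjusted p = 0.116) no longer passed. Without AREx replicates 1 and 4, the AREx changes of 9 called members moved by over 1.5 times and each still passed. The rise was then 2.19 for Ccl8, 1.89 for Ccl12, 1.66 for Ccl7, 3.44 for Ccl5, 3.92 for Ccl3, 4.45 for Cxcl10, 3.16 for Cxcl11 and 1.48 for Ccl19, and Ccl11 fell by 2.44. In that fit Ccl6 (0.51, adjusted p = 0.149) and Ackr2 (-0.71, adjusted p = 0.14) no longer passed. Ccl24, Ccl27a and Pf4 newly passed as lower and Ccr6 as higher. In the fit to all libraries the 4 that fell were Ccl11, Ackr1, Ackr2 and Ccl28. Ccr6 rose in Arthritis, but in AREx its change was 1.53 (SE 0.71, adjusted p = 0.0886). Its AREx libraries held 0.181, 1.57, 2.16 and 0.400 CPM, so replicates 1 and 4 lay within the Sedentary range of 0.0779 to 0.751 CPM and replicates 2 and 3 above it. Without AREx replicates 1 and 4 the Ccr6 change was 2.29 (adjusted p = 0.00361). It also passed without Sedentary replicate 1 (adjusted p = 0.042), AREx replicate 1 (0.0279) or AREx replicate 4 (0.0494).

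**Figure D3:**
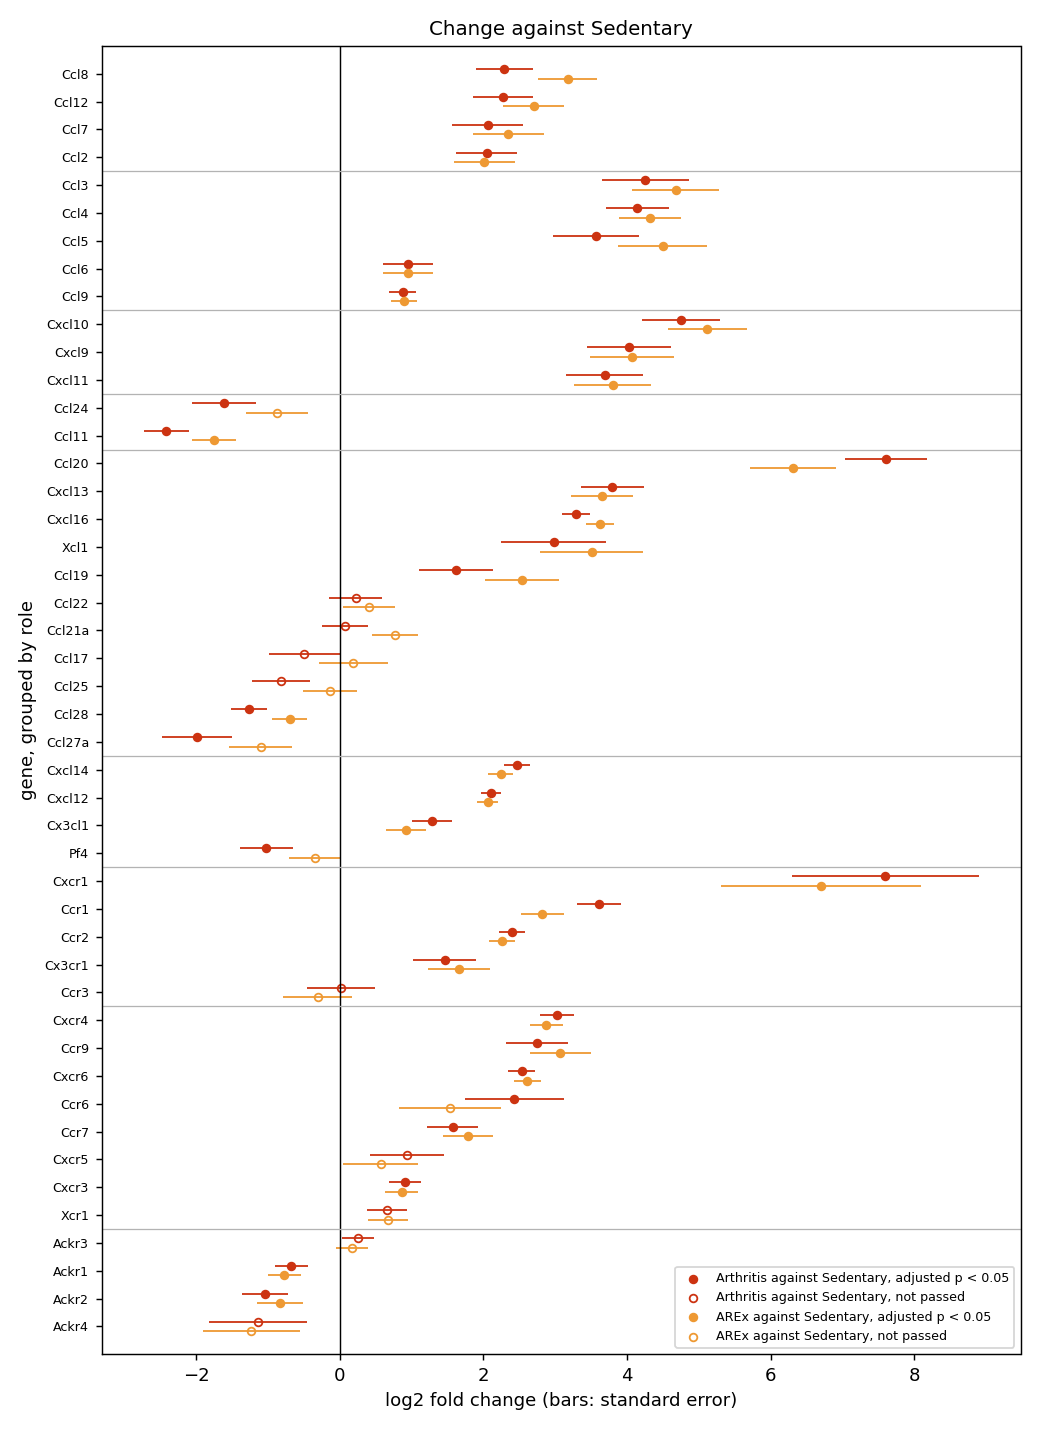
Fitted log2 fold change against Sedentary for 46 described members, grouped by role, in Arthritis (red) and AREx (orange), with bars for the standard error. Filled points passed an adjusted p of 0.05, and the points of Cxcr1 and Ccl20, which had 0 and 1 reads in Sedentary, depend on the prior count of the fit.

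Several AREx calls against Sedentary turned on single libraries. Ccl28 was not called without any 1 of Sedentary replicates 1, 2 and 3 and AREx replicates 2 and 3 (adjusted p = 0.0567 to 0.0784). Ackr2 was not called without any 1 of Sedentary replicates 2 and 3, AREx replicates 1, 2 and 4 and the 4 Arthritis replicates (adjusted p = 0.0534 to 0.141). Ccl6, whose AREx change was 0.95 (SE 0.35, adjusted p = 0.0362), was not called without any 1 of Sedentary replicates 1, 2 and 4 and AREx replicate 1 (adjusted p = 0.0508 to 0.131). Ccl27a passed without Arthritis replicate 1 (adjusted p = 0.0486), AREx replicate 1 (0.0198) or AREx replicate 4 (0.0491). Pf4, with an AREx change of -0.34 (SE 0.36, adjusted p = 0.452), passed without AREx replicate 1 (-0.87, adjusted p = 0.0144). Ccl21a passed as higher without AREx replicate 2 (0.95, adjusted p = 0.0254) or AREx replicate 3 (0.97, adjusted p = 0.0187). Its change was -0.0022 (adjusted p = 0.994) without AREx replicates 1 and 4, and 0.18 (adjusted p = 0.555) with the gene-length trend removed. Ccl22 passed without Sedentary replicate 4 (0.86, adjusted p = 0.0443), and Xcr1 passed without Arthritis replicate 2 (0.67, adjusted p = 0.0462). Xcl1 rose by 3.51 in AREx, or by 4.39 without Sedentary replicate 4.

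AREx was compared with Arthritis to see which of these genes differed with treadmill running among mannan-treated mice. No described member passed in edgeR's test, and 0.007% of all genes, 1 gene, did. At an unadjusted p under 0.05, 4 of 47 members and 19.9% of all genes stood out. With DESeq2, 77 genes were higher and 60 lower, among them 1 described member, Ccl20, and limma-voom called no described member. In the authors' deposited table, 2 described members were lower and none higher at an adjusted p under 0.05, Ccl20 and Ccr1, where 2.66% of the genes with a value passed. Log2 changes ran from -1.29 to 0.93 with a median SE of 0.37, and 31 of the 47 lay within 0.5 of 0. All 4 AREx libraries were below all 4 Arthritis libraries for 2 members, 4.26% of the 47, where 3.71% of all genes had that order, so the share was near that of all genes. No member had every AREx library above every Arthritis library, where 3.03% of all genes did.

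Those 2 members were Ccl20 and Ccr1. Ccl20, at 5.16 ± 0.577 CPM in Arthritis and 2.11 ± 0.819 in AREx, had a log2 change of -1.29 (SE 0.32, adjusted p = 0.233, 95% interval -1.92 to -0.66). With DESeq2 its change was -1.29 with adjusted p = 0.0146, and in the authors' deposited table it was -1.30 with an adjusted p of 0.0374. Over the 24 alternatives its change stayed between -1.58 and -0.77, with adjusted p from 0.0146 to 0.836. Ccr1, at 241 ± 43.1 CPM in Arthritis and 139 ± 37.5 in AREx, had a change of -0.79 (SE 0.28, adjusted p = 0.233, interval -1.33 to -0.25). Its adjusted p was 0.129 with DESeq2 and 0.0495 in the authors' deposited table, and its change stayed between -0.91 and -0.48 over the alternatives. The summed neutrophil markers in AREx spanned the Arthritis range on both sides, and their part in the Ccr1 value was not tested. Next by p were Ccl8 (0.88 (SE 0.38, adjusted p = 0.244)), Ccl11 (0.67 (SE 0.30, adjusted p = 0.249)) and Ccl28 (0.57 (SE 0.26, adjusted p = 0.251)). In AREx all 3 were highest in replicates 1 and 4. Without those 2 libraries the changes were -0.11 for Ccl8, -0.026 for Ccl11 and 0.26 for Ccl28.

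Within AREx, the ligands differed between libraries. AREx replicates 1 and 4 were both above replicates 2 and 3 for 23 of 29 described ligands and 4 of 18 receptors, where 32.8% of all genes had that order. Described ligands are short, with a median length of 1475 bases, against 3421 bases for the receptors and 3952 bases for all tested genes. In the shortest quintile, which holds 26 of the 47 members, 71.9% of all genes had that order, as did 20 of the 26. Against Arthritis, 22 of 29 ligands had a log2 change above 0, with a median of 0.36, and 6 of 18 receptors, with a median of -0.096. With the gene-length trend removed, 13 of 29 ligands were above 0 (median -0.0036) and 7 of 18 receptors (median -0.11). Without AREx replicates 1 and 4, 3 of 29 ligands (median -0.26) and 4 of 18 receptors (median -0.093) were above 0, beside 46.3% of all genes. Ccl20 and Ccr1 stayed negative, at -1.58 and -0.82 with the trend removed and at -1.25 and -0.66 without those libraries. With the trend removed Ccl24, Pf4 and Ccl27a were also called lower in AREx against Sedentary (changes -1.38, -1.10 and -1.45).

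**Figure D4:**
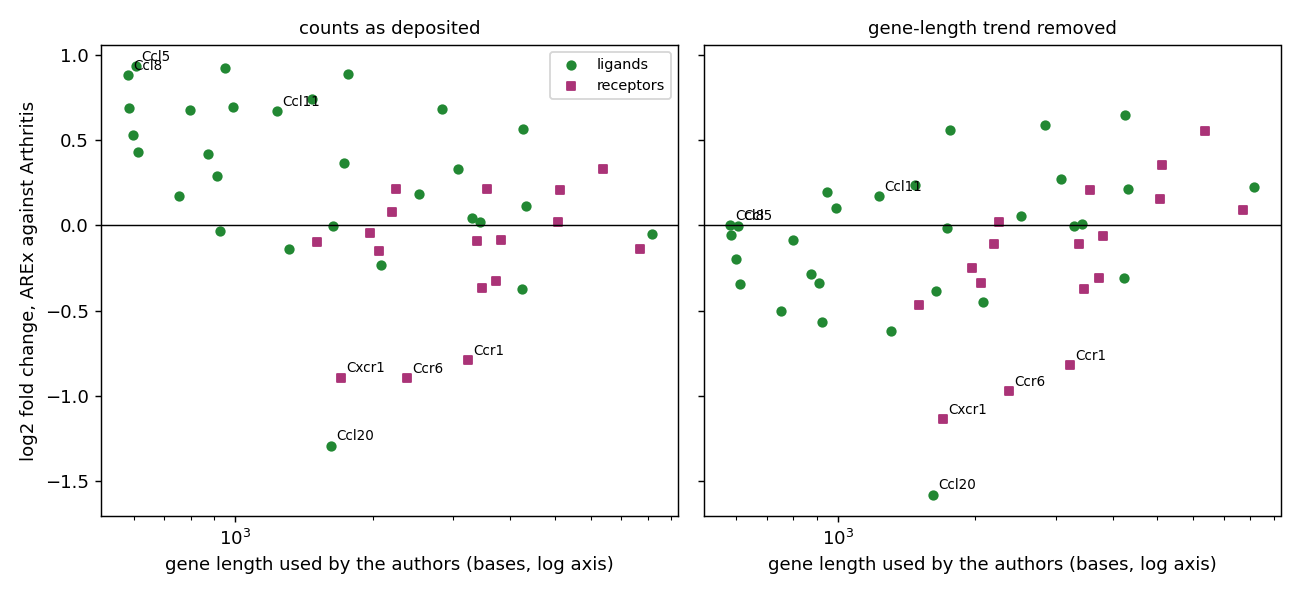
Log2 fold change of AREx against Arthritis for 46 described members over the gene length used by the authors (log axis), from the counts as deposited (left) and with the gene-length trend removed (right), with circles for ligands and squares for receptors. On the left the shortest ligands lie above 0, up to 0.93, and on the right they lie nearer to or below 0, while Ccl20, Ccr6, Cxcr1 and Ccr1 stay lowest in both.

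Members below the level were few-read genes. Ccl1, a ligand of Ccr8, had 62 reads and its groups were at 0.0289 ± 0.0578, 0.475 ± 0.159 and 0.663 ± 0.422 CPM. Ccr4, the T cell receptor of Ccl17 and Ccl22, held 97 reads. Ccr8, of regulatory and Th2 cells, and Ccr10 were still tested. Ccr8 rose in Arthritis with a change of 1.72 (SE 0.61, adjusted p = 0.0328), and Ccr10 fell in AREx with a change of -1.23 (SE 0.40, adjusted p = 0.0206). Ccl21b, Ccl21d, Ccl26, Cxcl15, Cxcl17 and Ccr1l1 held 1 to 11 reads each over the 12 libraries.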

How the data were processed

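Poly(A) RNA libraries were made with NEBNext Ultra II kits, per the labels' protocols, and the genome build was GRCm39, per the submitters' processing notes. The aligner, the counter and whether strand was used: not given in the sources used here. The deposited table held whole read counts per gene, named total counts per the file headers, and these were tested. The authors' RPKM values, per the file headers, served only with the counts to recover gene lengths, and the authors' TPM values only to set genes side by side. From the authors' deposited comparison columns, log2 changes and adjusted p-values were quoted as such, leaving out an adjusted p-value of exactly 0, which also stood for no value. Columns headed S were taken as Sedentary.

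Counts were filtered with filterByExpr (minimum count 10), scaled by TMM and fitted over all 12 libraries with edgeR 4.0.16 (robust quasi-likelihood F test) in R 4.3.3, with Benjamini-Hochberg adjustment over 14278 genes in each of the 3 comparisons and a threshold of 0.05. SE is the log2 change divided by the square root of F. CPM use TMM library sizes. Total counts per library ran from 11803882 to 17650156. DESeq2 1.42.0, limma 3.58.1 (voom), other scalings and filters, left-out libraries, the replicate number, gene length and a muscle score were tried as alternatives. The fit was tested on simulated data. Intervals on ratios of reads and floors of 3 counts cover counting error only.

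Of the 47 described members, 46 are named and drawn. The other, and some genes of the lists, are not reported here, although counts over all members or genes include them. Values in every library are given for Ccl11, Ccl20 and Cx3cr1, for named members among the 8 largest rises and all falls in Arthritis against Sedentary, and for the 5 smallest p in AREx against Arthritis. Members, lists and this rule were chosen with earlier results of these data known.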

Additional observations from a re-analysis of the deposited data

Results flagged for a closer look

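Within a group of 4 libraries, 7 of 141 groups of the described members had a library far from the other 3, which is about the 1 in 20 that chance gives. Ccl20 in Sedentary replicate 3 was at 0.0742 CPM, the only Sedentary library with a read. Cxcl10 in Arthritis replicate 2 was at 101 CPM, where the next Arthritis library was at 38.0 CPM. Ccl27a in Arthritis replicate 1 was at 0.607 CPM, above 0.252 CPM in the next. Ccr7 in Arthritis replicate 3 was at 10.4 CPM, above 5.64 CPM. Ccl9 in AREx replicate 1 was at 299 CPM, above 187 CPM, and Xcr1 in AREx replicate 4 was at 5.37 CPM, above 3.81 CPM. Cxcl16 in Sedentary replicate 2 was the lowest of its group, at 19.9 CPM below 23.8 CPM.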

How the results depend on the processing

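Over 24 alternatives, 33 of 38 described members called in Arthritis against Sedentary and 28 of 34 called in AREx against Sedentary were called in each. The number of members lower in AREx against Sedentary, 4, was 2 with only the 2 groups fitted, without AREx replicates 2 and 4 and with a muscle score as a covariate, and 7 with the gene-length trend removed. Leaving out 1 library gave 2 to 6. With DESeq2, 1 member was lower in AREx against Arthritis. Over all tested genes in that comparison, 1 was higher and none lower. DESeq2 gave 77 and 60, the gene-length trend removed 3 and 1, and leaving out 1 library 0 to 15 higher and 0 to 12 lower. No gene was higher with only the 2 groups fitted, without AREx replicates 1 and 4, without AREx replicates 2 and 4, or with the muscle score. With the replicate number as a block, 0 genes were higher in AREx against Arthritis. The numbers did not pair the libraries: correlations of same-numbered deviations ran from -0.072 to 0.15 over the 3 comparisons. In AREx against Arthritis, signs turned for Ccl11 (-0.026) and Ccl8 (-0.11) without AREx replicates 1 and 4, and for Cx3cr1 (0.21), which ran from -0.043 without AREx replicate 4 to 0.36 without AREx replicate 3, and also turned without replicates 1 and 4 (-0.063) and without replicates 2 and 4 (-0.18). The cause of these shifts was not tested. Under the block, Ccl24 (-1.07) and Ccl27a (-1.17) were called in AREx against Sedentary, and Ccl6, Ccl28 and Ackr2 were not. Cx3cl1 lost its AREx call with the muscle score (0.62, adjusted p = 0.215) and Cxcr3 with the gene-length trend removed (0.63, adjusted p = 0.055). Counts under about 1 CPM limit Ccl27a, Cxcr1, Xcl1, Ccr6 and Cxcr5.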
